A study of Mus musculus with 6 samples.

Results

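Matrix metalloproteinases (MMPs) are zinc-dependent enzymes that cut collagens, elastin, proteoglycans and other proteins outside the cell, and tissue inhibitors of metalloproteinases (TIMPs) bind their active sites. In the lung, Mmp12 is known as the elastase of macrophages, Mmp8 and Mmp9 are stored in neutrophil granules, and Mmp2, Mmp14 and the TIMPs are made largely by mesenchymal cells. The genes described here were picked by symbol, with earlier results of these data known: 7 MMPs (Mmp2, Mmp3, Mmp8, Mmp9, Mmp12, Mmp14 and Mmp19) and 3 inhibitors (Timp1, Timp2 and Timp3). All 10 were found among the 23238 gene symbols of the count tables, and all 10 passed the filter on low counts that left 14057 genes for testing.

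Lung tissue of wild-type (WT) mice was sequenced after PM or after its vehicle, phosphate-buffered saline (PBS), both given by the route labelled i.t., and the series title calls the exposure chronic. The labels do not spell out PM and give no dose, duration, strain, age or sex, nor do they tie samples to separate animals, so the p-values refer to the spread among these samples, which may be technical. There were 3 samples in each group, but PBS replicates 1 and 2 held identical values in all 23282 entries. They were counted once, as PBS replicate 1, so that 2 PBS libraries were set against 3 PM libraries. Total counts per library ran from 7410200 to 8827202. Rn45s, a ribosomal RNA precursor, held 18.2% and 16.3% of them in PBS replicates 1 and 3. In PM replicates 1, 2 and 3 it held 23.6%, 25.4% and 15.7%. The lung markers were present, with the 9 alveolar epithelial markers summing to between 22318 and 26567 CPM (read counts brought to a shared library total, scaled by the trimmed mean of M values, TMM), and the 6 heart markers, which a piece of lung can carry along, summed to between 154 and 499 CPM. The 4 fat markers reached 94.2 and 74.0 CPM in PM replicates 1 and 3 and were between 2.72 and 17.2 CPM in the other libraries. The 5 red blood cell markers ranged from 5082 to 47962 CPM, with PBS replicate 1 the highest. The part of carried-over tissue and blood in the results was not tested.

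Of the 10 genes, 4 lay higher in every PM library than in either PBS library: Mmp12, Mmp8, Mmp19 and Timp1. The same held for 15.5% of all genes tested. Mmp12 had by far the greatest difference, at 7.61 ± 4.65 CPM in PBS (mean ± SD, n = 2) against 175 ± 126 CPM in PM (n = 3). The gelatinases Mmp2 and Mmp9, the stromelysin Mmp3, the membrane-bound Mmp14 and the inhibitors Timp2 and Timp3 overlapped between the groups. None of the 10 passed the test over all genes, although Mmp19 and Mmp8 came close to the threshold.

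The question addressed by the design was how PM alters gene expression in the lung. By edgeR's quasi-likelihood test (two-sided, threshold 0.05 on the Benjamini-Hochberg adjusted p), 0 of the 10 genes were higher, against 0.142% of all genes tested, and 0 were lower, against 0.0854%. At an unadjusted p below 0.05 in the same edgeR fit, 3 were higher (7.26% of all genes) and 0 lower (6.05%). The groups were fully separate, with PM above PBS, for 4 of the 10 genes (15.5% of all genes), and with PM below PBS for 0 (16.1%). DESeq2 placed 3 of them, Mmp8, Mmp12 and Mmp19, higher (1.9% of all genes) and 0 lower (0.818%), and limma-voom called 0 (0.121%). At an edgeR adjusted p below 0.10, Mmp8 and Mmp19 would pass (1.47% of all genes). The median log2 fold was 0.62 over the 10 genes and 0.0077 over all genes tested.

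**Figure D1:**
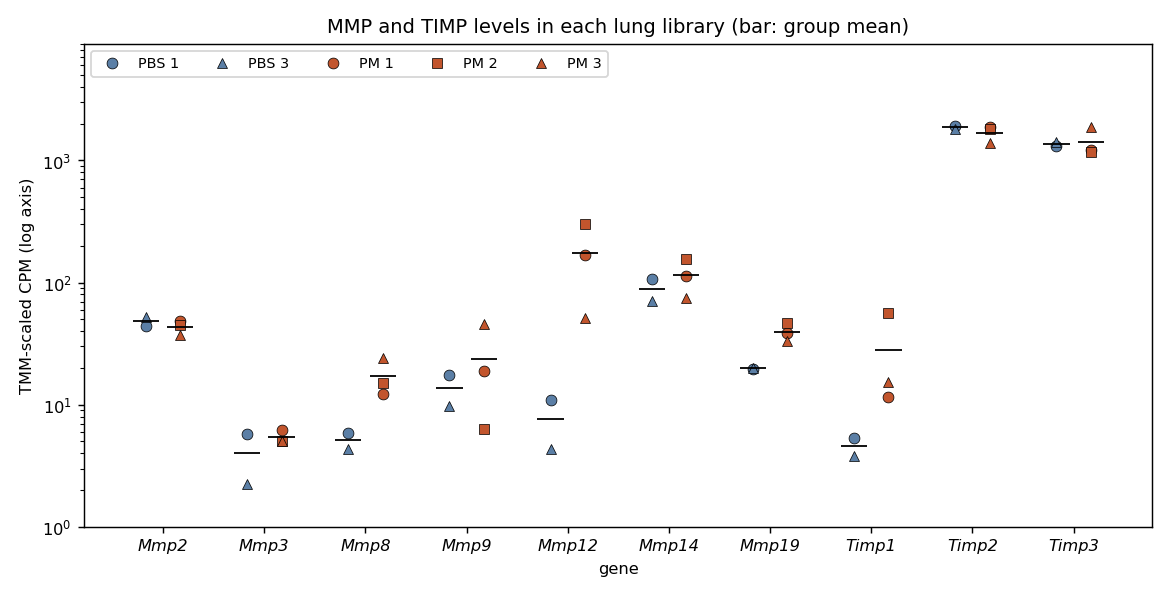
Level of each gene in the 5 distinct libraries, as TMM-scaled CPM on a log axis; blue symbols are PBS, orange symbols PM, the symbol shape gives the replicate number and the black bar the group mean. Mmp8, Mmp12, Mmp19 and Timp1 show every PM library above both PBS libraries, as did 15.5% of all genes tested, and the other genes overlap.

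Mmp12, the macrophage elastase, lies on chromosome 9 at 7344397 to 7360461 (mouse build GRCm38, the same assembly as mm10; all coordinates below are from RefSeq for that build). PBS replicates 1 and 3 held 10.9 and 4.32 CPM of it, and PM replicates 1, 2 and 3 held 170, 304 and 51.3 CPM. The groups did not overlap, but the PM libraries spread over a 5.92-fold range and the PBS libraries over a 2.52-fold range. The log2 fold was 4.51 ± 1.22 SE (95% interval 0.80 to 8.22), at a Benjamini-Hochberg adjusted p of 0.308 in the edgeR fit. Its unadjusted p in the edgeR fit was 0.0298, and DESeq2 called it (adjusted p = 0.000527). Without robust estimation, edgeR gave a Benjamini-Hochberg adjusted p of 0.0584 for the same libraries, and limma-voom gave an adjusted p of 0.190. The lowest library held 35 reads of Mmp12. What limited the edgeR value was not tested.

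Macrophage markers were measured beside Mmp12. The 9 alveolar macrophage markers matched in the tables summed to 316 and 570 CPM in PBS and to 1257, 1524 and 1044 CPM in PM, a ratio of group means of 2.88, where that of Mmp12 was 23.0. Of these 9, 5 lay higher in every PM library than in either PBS library (15.5% of all genes) and 0 were called by edgeR. Chil3, a chitinase-like protein of macrophages, made up much of the sum, at 18.2 and 127 CPM in PBS and 591, 1014 and 453 CPM in PM. Without it the ratio was 1.59, but Car4 then made up most of the PBS sums. Car4 overlapped between groups, at 225 and 283 CPM in PBS and 287, 225 and 298 CPM in PM. Beside Chil3, the markers higher in every PM library were Ear2, Fabp4, Krt79 and Itgax. Marco, a scavenger receptor, was at 0.811 and 3.83 CPM in PBS and at 52.1, 1.72 and 55.4 CPM in PM, so that PM replicate 2 lay within the PBS range. The 10 markers of macrophages and monocytes summed to 327 and 343 CPM in PBS and to 514, 743 and 457 CPM in PM, a ratio of 1.71. Of these 10, 9 lay higher in every PM library than in either PBS library (15.5% of all genes). Ccr2, the chemokine receptor of monocytes, was the 1 marker of that list that edgeR called (log2 fold 1.28 ± 0.16 SE, Benjamini-Hochberg adjusted p = 0.0142), where 0.142% of all genes were called higher. No marker of either list was at 0 in all libraries. In bulk tissue, more cells of a type and more RNA per cell cannot be told apart, and the part of the macrophage genes in the Mmp12 difference was not tested.

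Mmp8, the neutrophil collagenase, is on the same chromosome at 7558429 to 7568486. Its level was 5.91 CPM and 4.32 CPM in PBS replicates 1 and 3, against 12.3, 15.0 and 24.1 CPM in PM replicates 1, 2 and 3. All PM libraries thus lay above PBS, with PM replicate 3 the highest. The log2 fold was 1.74 ± 0.33 SE (95% interval 1.01 to 2.47), at a Benjamini-Hochberg adjusted p of 0.0530 in the edgeR fit, the rank of its p being 69 among 14057 genes. With 1 library left out, the same edgeR test called Mmp8 in 2 of 5 fits, without PM replicate 2 and without PM replicate 3 (Benjamini-Hochberg adjusted p = 0.0467 and 0.0344). It did not do so without PM replicate 1 (0.0813), PBS replicate 1 (0.444) or PBS replicate 3 (0.461). With all 5 libraries DESeq2 called it (adjusted p = 0.000647) and limma-voom did not (adjusted p = 0.149).

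Mmp9, the gelatinase of neutrophils and other leukocytes (chromosome 2, 164940326 to 164955850), followed a different order of libraries. It stood at 17.5 CPM and 9.76 CPM in PBS replicates 1 and 3, against 18.8, 6.31 and 46.0 CPM in PM replicates 1, 2 and 3. PM replicate 2 was the lowest of all 5 libraries and PM replicate 3 the highest, a 7.30-fold range within PM. The log2 fold of 0.80 ± 0.99 SE (95% interval -2.12 to 3.73; edgeR, Benjamini-Hochberg adjusted p = 0.805) turned to -0.10 without PM replicate 3.

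The summed neutrophil markers had the same highest and lowest PM library as Mmp9, as did most single markers, but 2 tested markers differed in their order. The 9 matched markers summed to 263 and 127 CPM in PBS replicates 1 and 3, against 267, 216 and 911 CPM in PM replicates 1, 2 and 3. S100a8 and S100a9, the calprotectin subunits of neutrophils, stood at 342 and 460 CPM in PM replicate 3 and at 36.4 and 64.1 CPM in PM replicate 2, while Mpo, the myeloperoxidase of neutrophil precursors, had fewer than 10 reads in each library. Without S100a8 and S100a9 the other 7 summed to 34.7 and 28.3 CPM in PBS and to 56.6, 116 and 110 CPM in PM. Retnlg, a resistin-like protein of neutrophils, was at 19.9 and 20.7 CPM in PBS and at 35.8, 84.6 and 58.1 CPM in PM, and Ltf, or lactoferrin, at 1.16 and 0.617 CPM in PBS and at 9.58, 25.5 and 8.58 CPM in PM. Both were thus above PBS in every PM library and highest in PM replicate 2, and together they made up most of the sums without S100a8 and S100a9. They were 2 of the 6 tested markers (15.5% of all genes lay above PBS in every PM library), and the other 4 overlapped between groups. Those 4, S100a8, S100a9, Cxcr2 and Csf3r, were highest in PM replicate 3, with PM replicate 2 the lowest PM library, as for Mmp9. Ngp and Camp, with too few reads to be tested, had the same highest and lowest PM library. The part of neutrophil content in these values was not tested.

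**Figure D2:**
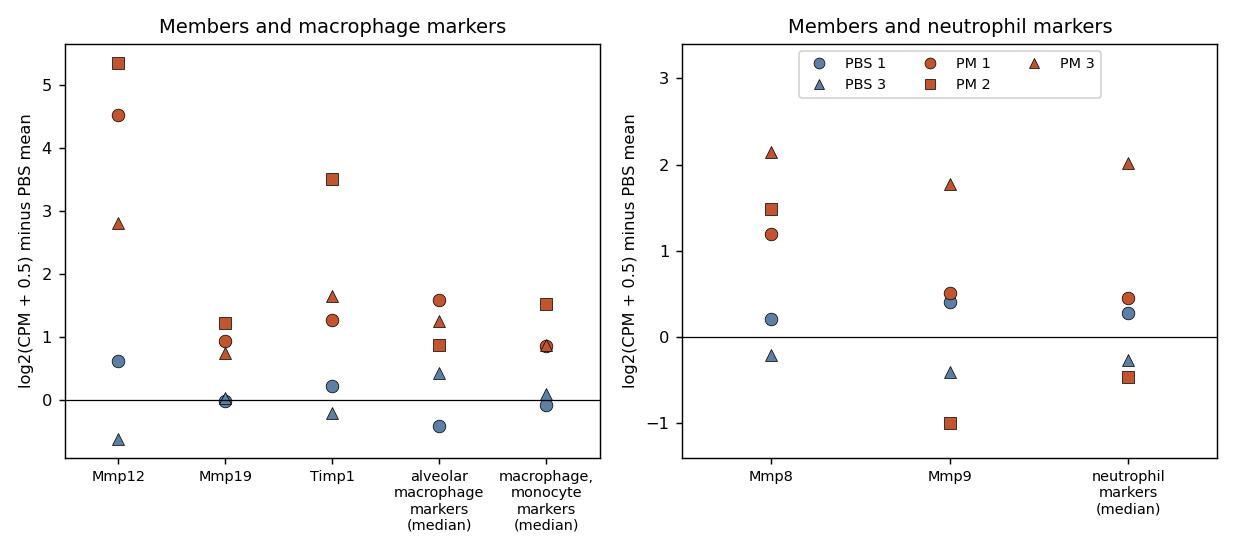
Each library's log2(CPM + 0.5) minus the PBS mean, for single genes and for the median over marker lists of macrophages (left) and neutrophils (right); blue is PBS, orange is PM, and shapes give the replicate number. Mmp9 and the median of the neutrophil markers share PM 3 as the highest and PM 2 as the lowest library, whereas all PM libraries lie above PBS for Mmp8, Mmp12, Mmp19 and Timp1.

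Mmp19, a metalloproteinase that cleaves basement membrane proteins, lies on chromosome 10 at 128790910 to 128800827. It was the most even of the higher genes, at 19.5 and 20.1 CPM in PBS replicates 1 and 3, against 38.5, 47.0 and 33.5 CPM in PM replicates 1, 2 and 3. The groups were well apart relative to their spread, with means of 19.8 ± 0.466 CPM and 39.7 ± 6.81 CPM. Its log2 fold of 1.001 ± 0.18 SE (95% interval 0.60 to 1.41) came with a Benjamini-Hochberg adjusted p of 0.0525 from edgeR. Of the 5 edgeR fits with 1 library left out, 2 called Mmp19, those without PM replicate 2 and without PM replicate 3 (Benjamini-Hochberg adjusted p = 0.0482 and 0.0128). The fits without PM replicate 1, PBS replicate 1 or PBS replicate 3 did not (0.122, 0.444 and 0.332). With all libraries DESeq2 called it (adjusted p = 0.000950) and limma-voom did not (adjusted p = 0.0971).

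The Mmp19 counts could not be assigned to Mmp19 alone. Its exons share 789 bases, 22.3% of its exon length in GENCODE M21, with Tmem198b on the opposite strand, and the sources used here do not give whether counting used strand. The 2 genes held nearly the same counts: 168 and 163 reads of Mmp19 in PBS and 329, 328 and 266 in PM, against 146 and 154 reads of Tmem198b in PBS and 300, 292 and 246 in PM. The ratio of Mmp19 to Tmem198b was between 1.06 and 1.15 in all 5 libraries. The log2 fold of Tmem198b was 1.0002 ± 0.19 SE, at a Benjamini-Hochberg adjusted p of 0.0525 in the edgeR fit. Without strand, reads from the shared stretch cannot be assigned to either gene, and how much of the counts they make up cannot be told from the deposited counts.

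Mmp3, or stromelysin, on chromosome 9 at 7445822 to 7455975, was low in every library. It stood at 5.79 and 2.22 CPM in PBS replicates 1 and 3, against 6.19, 5.02 and 5.04 CPM in PM replicates 1, 2 and 3. The PM libraries were close together, and the span between both PBS libraries took in 2 of the 3 PM values. The log2 fold was 0.43 ± 0.43 SE (95% interval -0.52 to 1.38; edgeR, Benjamini-Hochberg adjusted p = 0.722), and it was -0.10 without PBS replicate 3. That library held 18 reads of Mmp3, for which counting error alone is 23.6%. In GENCODE M21, 8.39% of the 50-base words of Mmp3 transcripts also occur in other genes, chiefly Mmp10, which had 0 reads in all libraries.

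Mmp2, the gelatinase of mesenchymal cells (chromosome 8, 92827290 to 92853421), stayed within a narrow range. It was at 44.2 and 52.0 CPM in PBS replicates 1 and 3, against 48.2, 45.0 and 37.5 CPM in PM replicates 1, 2 and 3. The groups overlapped, with a log2 fold of -0.14 ± 0.16 SE (95% interval -0.48 to 0.20; edgeR, Benjamini-Hochberg adjusted p = 0.753). Differences of over 1 on the log2 scale lie outside that interval. The 10 fibroblast markers summed to 5187 and 4894 CPM in PBS and to 4060, 3731 and 3264 CPM in PM, and 5 of them were lower in every PM library than in either PBS library (16.1% of all genes), while edgeR called 0. Inmt, a methyltransferase of lung fibroblasts, carried most of the drop of the sum in PM replicates 1 and 2. Without it the sums were 2434 and 2326 CPM in PBS and 2339, 2466 and 1552 CPM in PM. The others of the 5 lower genes were Pdgfra, Col13a1, Tcf21 and Npnt, and the rest of the list overlapped between groups. The median over the 10 markers, as log2(CPM + 0.5) minus the PBS mean, was -0.227, -0.251 and -0.590 in PM replicates 1, 2 and 3. The collagen gene Col3a1 went the other way in PM replicates 1 and 2 only. It stood at 359 and 295 CPM in PBS and at 423, 595 and 214 CPM in PM, so that PM replicate 3 lay below both PBS libraries.

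Mmp14, a protease anchored in the cell membrane that activates Mmp2 together with Timp2, lies on chromosome 14 at 54431598 to 54442456. Its level was 107 and 71.1 CPM in PBS replicates 1 and 3, against 114, 157 and 75.2 CPM in PM replicates 1, 2 and 3. PM replicates 1 and 2 exceeded both PBS libraries, while PM replicate 3 lay between them. The log2 fold was 0.37 ± 0.36 SE (95% interval -0.58 to 1.31; edgeR, Benjamini-Hochberg adjusted p = 0.741).

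Timp1, the inhibitor that many tissues induce during inflammation, was the only inhibitor of the 3 that lay higher in every PM library. It is on the X chromosome at 20870166 to 20874737, inside an intron of Syn1 on the opposite strand with no exon sequence shared. Its level was 5.33 and 3.83 CPM in PBS replicates 1 and 3, against 11.6, 56.6 and 15.3 CPM in PM replicates 1, 2 and 3. PM replicate 2 was 4.89-fold above PM replicate 1, and the log2 fold was 2.58 ± 1.03 SE (95% interval -0.40 to 5.57; edgeR, Benjamini-Hochberg adjusted p = 0.429). Without PM replicate 2 the log2 fold was 1.54 and edgeR called Timp1 (Benjamini-Hochberg adjusted p = 0.0482), the only 1 of the 5 fits with a library left out to do so. The Benjamini-Hochberg adjusted p of edgeR was 0.341 without PM replicate 1, 0.387 without PM replicate 3, 0.757 without PBS replicate 1 and 0.876 without PBS replicate 3. DESeq2 did not call it with all libraries (adjusted p = 0.111).

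Timp2, a broad inhibitor that also takes part in activating Mmp2, lies on chromosome 11 at 118301061 to 118355411. It was at 1910 and 1818 CPM in PBS replicates 1 and 3, against 1880, 1803 and 1402 CPM in PM replicates 1, 2 and 3, so that PM replicates 1 and 2 lay close to PBS and PM replicate 3 was the lowest. Its log2 fold was -0.14 ± 0.14 SE (95% interval -0.44 to 0.17; edgeR, Benjamini-Hochberg adjusted p = 0.728).

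Timp3, the inhibitor that binds to the matrix itself, lies on chromosome 10 at 86300412 to 86349505 within Syn3. Its values were 1303 and 1407 CPM in PBS replicates 1 and 3, against 1221, 1171 and 1898 CPM in PM replicates 1, 2 and 3. PM replicate 3 was the highest library for Timp3 and the lowest for Timp2. The log2 fold was 0.08 ± 0.20 SE (95% interval -0.39 to 0.55; edgeR, Benjamini-Hochberg adjusted p = 0.917), and -0.18 without PM replicate 3. Exons of Timp3 share 1733 bases with Syn3, which held 23 to 41 reads where Timp3 held 8172 to 15053.

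**Figure D3:**
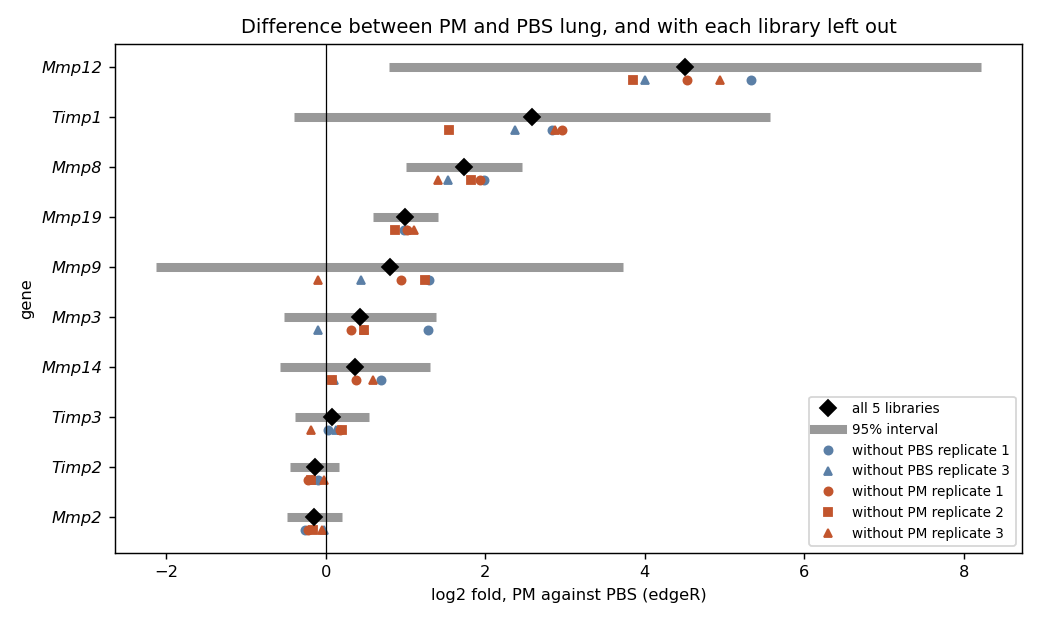
Log2 fold of PM against PBS for each gene from edgeR, with black diamonds for all 5 libraries, grey bars for the 95% interval and small symbols for the fits without 1 library. Intervals of Mmp12, Mmp8 and Mmp19 lie above 0, and those of the other genes include 0; Mmp9, Mmp3 and Timp3 reach both sides of 0 when 1 library is left out.

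Levels were compared between genes per length, as CPM per kilobase of exon. The length used was that of all annotated exons of a gene joined, which was 7237 bases for Mmp12. Single transcripts can be shorter, which would raise a gene's level per kilobase. The order, sums and shares below therefore depend on this choice of length, and other lengths were not tried. In PBS the order was Timp2 (478 ± 16.6), Timp3 (166 ± 9.01), Mmp14 (15.0 ± 4.29), Mmp2 (14.3 ± 1.64), Mmp19 (5.60 ± 0.132), Timp1 (5.16 ± 1.20), Mmp9 (3.85 ± 1.55), Mmp3 (2.23 ± 1.40), Mmp8 (2.11 ± 0.463) and Mmp12 (1.05 ± 0.642, all mean ± SD, n = 2). Neighbours in that order overlapped between libraries from Mmp14 to Mmp2 and from Mmp19 down to Mmp8, and Mmp12 was below Mmp8 in both libraries. In PM, Mmp12 had moved from last to the fourth place, at 24.2 ± 17.4 CPM per kilobase, and Timp1 from the sixth to the third, at 31.3 ± 28.2 (n = 3). In PM, Timp2 and Timp3 were again the highest, did not overlap each other or Timp1, and from Timp1 downward every neighbouring pair in the PM order overlapped.

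The summed level of the 7 MMPs was 48.7 and 39.4 CPM per kilobase in PBS replicates 1 and 3, against 81.5, 106 and 66.0 in PM replicates 1, 2 and 3. All PM libraries thus stood above PBS in this sum, also with Mmp12 taken out, at 47.2 and 38.8 in PBS and 58.1, 63.7 and 59.0 in PM. Mmp12 made up 3.09% and 1.51% of the MMP sum in PBS, and 28.8%, 39.7% and 10.7% in PM. The sum of the 3 inhibitors stayed between 610 and 670 CPM per kilobase in all 5 libraries. The MMP sum therefore equalled 7.42% and 6.12% of the TIMP sum in PBS, and 12.6%, 15.8% and 10.8% in PM. These are sums of transcript levels over genes chosen with earlier results known, given as a description without a test, and they do not measure enzyme activity.

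**Figure D4:**
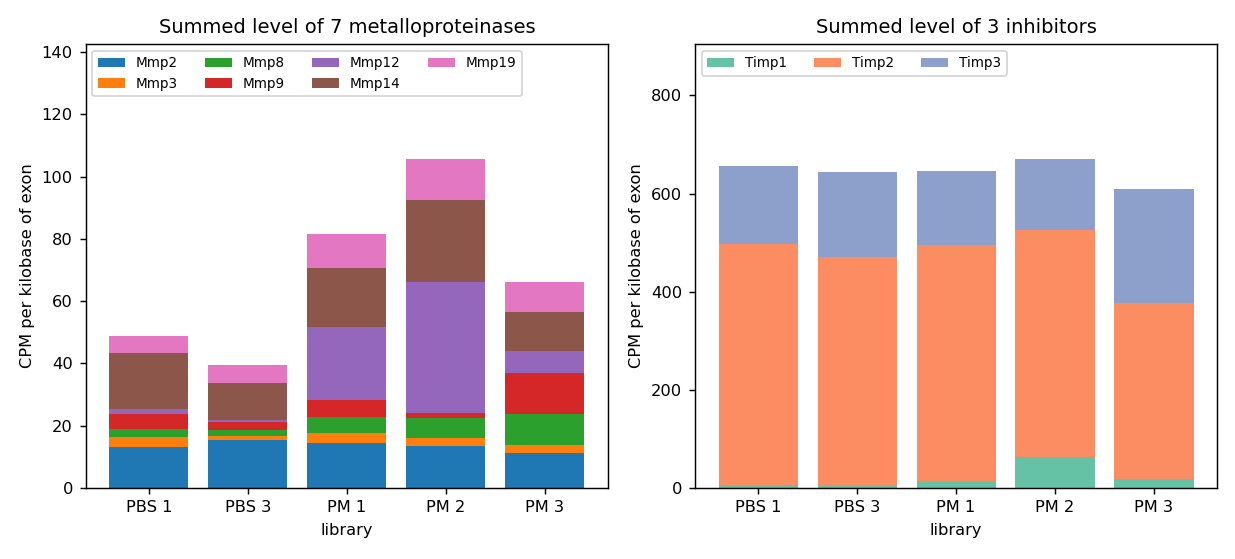
Stacked bars of CPM per kilobase of exon in each library, for the 7 metalloproteinases (left) and the 3 inhibitors (right, on its own scale). The MMP bars are 48.7 and 39.4 in PBS and 66.0 to 106 in PM, with Mmp12 widening most, and the TIMP bars stay between 610 and 670.

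Mmp12, Mmp3 and Mmp8 belong to a cluster of 10 MMP genes on chromosome 9, which also holds Mmp13, Mmp1b, Mmp1a, Mmp10, Mmp27, Mmp20 and Mmp7. Of these 10 genes only Mmp12, Mmp3 and Mmp8 had enough reads to be tested. Mmp13, the collagenase next to Mmp12, had 3 and 1 reads in PBS and 13, 8 and 7 reads in PM, too few to pass the filter. Mmp27 had 2 and 5 reads in PBS and 0, 0 and 1 in PM, and Mmp1b had 2 reads in PM replicate 2 and 0 elsewhere. Mmp1a, Mmp10, Mmp20 and Mmp7 were at 0 reads in all 5 libraries, where 3 reads correspond to between 0.340 and 0.405 CPM of the deposited totals. Neighbouring genes of the cluster thus differed widely in level and in the size of their difference between groups.

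Upstream sequences of the 3 tested cluster genes are shown because neighbours with unlike results can be compared base by base. Each is the 250 bases before a RefSeq start (GRCm38.p6, plus strand), in lower case with matches to the AP-1 motif TGANTCA (a binding sequence of Fos and Jun proteins) and to the TATA box TATAAA, on either strand, in capitals; matches that reach past the start are not within the printed stretch. For Mmp12, which has 2 RefSeq starts, the one with a match is shown. The regions are chr9:7347124-7347373 for Mmp12, chr9:7445572-7445821 for Mmp3 and chr9:7558179-7558428 for Mmp8.
Mmp12: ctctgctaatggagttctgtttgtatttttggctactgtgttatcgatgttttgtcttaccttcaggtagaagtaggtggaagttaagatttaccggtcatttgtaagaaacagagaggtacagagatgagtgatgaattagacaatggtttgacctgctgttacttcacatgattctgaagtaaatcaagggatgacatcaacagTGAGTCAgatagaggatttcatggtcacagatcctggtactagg
Mmp3: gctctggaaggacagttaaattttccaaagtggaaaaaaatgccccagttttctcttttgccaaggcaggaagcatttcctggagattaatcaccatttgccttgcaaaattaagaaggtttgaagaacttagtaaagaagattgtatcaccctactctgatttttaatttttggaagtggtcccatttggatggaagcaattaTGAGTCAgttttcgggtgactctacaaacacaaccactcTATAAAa
Mmp8: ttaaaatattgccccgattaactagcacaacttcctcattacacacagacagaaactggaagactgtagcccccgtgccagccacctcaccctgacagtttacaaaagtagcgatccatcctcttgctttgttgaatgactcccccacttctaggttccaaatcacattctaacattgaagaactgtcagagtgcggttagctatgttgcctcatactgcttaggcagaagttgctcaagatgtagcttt

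The AP-1 letters TGAGTCA began 44 bases before this Mmp12 start and 46 bases before the Mmp3 start, on the gene's strand in both. Mmp12 and Mmp3 were the only genes of the 7 with a RefSeq promoter in which TGANTCA was found. Over windows from 250 bases before to 50 after the start, read on both strands, TGANTCA was present in 7.81% of 32851 promoters. The letters TATAAA were in the promoters of 3 of the 7 genes, namely Mmp12, Mmp3 and Mmp8 (13.6% of all promoters). They began 5 bases after this Mmp12 start, 7 bases before the Mmp3 start and, on the other strand, 3 bases before the Mmp8 start. The ETS core CAGGAA was in Mmp3, Timp3 and Timp1 (30.6%), with 4 matches in Timp1. The GC box GGGCGG was in 4, namely Mmp14, Timp1, Timp2 and Timp3 (35.7%), and the palindromic STAT6 motif in 0 (6.95%). None of the 18 matches overlapped another. A match describes the sequence only: Mmp12 and Mmp3 both carried the AP-1 letters and had log2 folds of 4.51 and 0.43.

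Of the 17 other genes of the family, 7 were tested, 10 had at most 13 reads in any library, and 6 of these were at 0 in all 5. By edgeR with Benjamini-Hochberg adjustment 0 of the 7 were called, as by DESeq2 and limma-voom, and by the unadjusted p 0 were higher and 2 lower. Over all genes tested the unadjusted shares were 7.26% higher and 6.05% lower, and those by DESeq2 1.9% and 0.818%, against which the counts of this list and the next 3 can be read. The 2 genes were Mmp11, also called stromelysin-3, with 39.0 ± 0.532 CPM in PBS against 25.1 ± 4.24 CPM in PM (log2 fold -0.64 ± 0.18 SE, adjusted p = 0.145), and the membrane-type Mmp15, at 66.7 ± 4.61 and 52.8 ± 6.66 CPM (log2 fold -0.34 ± 0.14 SE, adjusted p = 0.327). For both, all PM libraries lay below all PBS libraries, as was the case for 16.1% of all genes tested. The median log2 fold of the 7 was -0.20.

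Proteins that activate, bind or limit MMPs were mixed. Of 22 such genes, 15 were tested and 0 were called by edgeR, with 4 on the higher (7.26% of all genes) and 2 on the lower side (6.05%) of an unadjusted 0.05, 2 higher by DESeq2 (Lcn2 and Slpi; 1.9% of all genes) and 1 by limma-voom (Lcn2, adjusted p = 0.0339). Also past the unadjusted threshold, and named after their values were seen, were Thbs1 (log2 fold 0.69), Lrp1 (-0.34) and Sparc (-0.36). Lcn2, which forms a complex with Mmp9, averaged 52.4 ± 10.3 CPM in PBS, against 251 ± 89.2 CPM in PM (log2 fold 2.26 ± 0.33 SE, edgeR, Benjamini-Hochberg adjusted p = 0.0690). Slpi, an inhibitor of neutrophil elastase, stood at 78.2 ± 10.6 and 130 ± 23.8 CPM (log2 fold 0.73 ± 0.17 SE, edgeR, Benjamini-Hochberg adjusted p = 0.0927).

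The related ADAM and ADAMTS proteases were balanced in direction, with 9 positive and 8 negative log2 folds among 17 tested. None was called by edgeR, 2 were higher and 2 lower by the unadjusted p, DESeq2 called 1 higher (Adam8) and limma-voom 0. Beside those described next, the genes past the unadjusted threshold, named after their values were seen, were Adam28 (log2 fold 0.71) and Adamts1 (-0.39). Adam8, a protease of leukocytes, averaged 3.15 ± 0.958 CPM in PBS, against 12.0 ± 3.66 CPM in PM (log2 fold 1.91 ± 0.37 SE, edgeR, Benjamini-Hochberg adjusted p = 0.0530). Adamts10, a protease tied to fibrillin microfibrils, stood at 78.4 ± 0.539 and 59.1 ± 4.24 CPM (log2 fold -0.41 ± 0.12 SE, edgeR, Benjamini-Hochberg adjusted p = 0.168).

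Genes of the matrix that MMPs can cut were balanced as well, with 9 positive and 8 negative log2 folds among 17 tested. EdgeR called 0, with 2 higher and 2 lower by the unadjusted p, DESeq2 called 2 higher (Vcan and Spp1) and 1 lower (Lamb1), and limma-voom 0. Spp1, or osteopontin, and the basement membrane collagen Col4a1, named after their values were seen, had log2 folds of 0.84 and -0.26 and also passed the unadjusted threshold. Vcan, the proteoglycan versican, averaged 4.16 ± 1.62 CPM in PBS, against 15.4 ± 5.43 CPM in PM (log2 fold 1.89 ± 0.36 SE, edgeR, Benjamini-Hochberg adjusted p = 0.0530). Lamb1, a laminin chain of basement membranes, stood at 122 ± 1.30 and 83.0 ± 4.71 CPM (log2 fold -0.55 ± 0.11 SE, edgeR, Benjamini-Hochberg adjusted p = 0.0605). The median log2 folds of the 3 lists were 0.055 for activators and inhibitors, 0.018 for ADAM and ADAMTS genes and 0.0068 for matrix genes.

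Genes with the most similar pattern were sought for 4 of the members as the smallest root-mean-square difference of centred log2(CPM + 0.5) over the 5 libraries, among 9005 other named genes with a mean of at least 10 CPM. For Mmp12 the nearest were Muc5b, a secreted mucin (difference 0.418), Alox12e (0.550) and Reg3g, a secreted lectin (0.556). For Mmp14 they were Srebf2, a regulator of sterol synthesis (0.0205), Wwc1 (0.0856) and Adam15, a membrane metalloproteinase (0.0897). Those of Mmp19 included its overlapping partner Tmem198b (0.0410) and the galectin Lgals3 (0.0734). Timp1 was nearest to Pigr, the epithelial receptor for polymeric immunoglobulin (0.172), Tgtp2 (0.448) and Slc5a1, a glucose transporter (0.455). Pigr stood at 23.9 and 18.2 CPM in PBS and at 45.2, 175 and 62.0 CPM in PM, with the same order of libraries as Timp1. Among the members themselves, Mmp2 and Timp2 were the closest pair (difference 0.102). The difference is not scaled to a gene's range, so genes that vary little between libraries, as both of these did, come out close.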

How the data were processed

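Per the labels' protocols, an easy-BLUE kit served to extract lung RNA and a SENSE mRNA-Seq kit to build the libraries. The authors deposited 1 table per sample of unnormalized read counts by gene symbol. TopHat, Cufflinks and the build mm10 are named in the submitters' processing notes; the counter, the annotation and whether strand was used were not given in the sources used here. PBS replicate 2 has a table that carries the header of PBS replicate 1 and was counted with it as 1 library. An entry without a gene name, which held no reads, was left out, and of the 79 entries that shared a symbol only the entry with most reads per symbol was kept, which set aside 44 entries with 0.0246% of counts.

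Counts were tested with edgeR 4.0.16 in R 4.3.3 (filterByExpr, TMM scaling, robust quasi-likelihood fit, two-sided, no covariates), and p-values were adjusted over all 14057 genes tested by the Benjamini-Hochberg method. The procedure was also run on counts simulated from the fit's own dispersions with known folds. Such counts hold no copied library and no carried-over tissue or blood, so they do not test for these. Levels are TMM-scaled CPM computed from the counts, standard errors are the log2 fold divided by the square root of F, and intervals of 95% use the fit's degrees of freedom. Exon lengths and overlaps are from GENCODE M21, and gene coordinates and promoters from RefSeq for GRCm38. Of the 10 genes, 7 matched a promoter. Alternatives were DESeq2 1.42.0, limma-voom (limma 3.58.1), other scaling, filters and thresholds, each library left out, the replicate number as a block, all 6 tables, and counts without Rn45s and haemoglobin genes.

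The members, gene lists, motifs and alternatives were chosen with earlier results of these data known. All 10 members are named whatever their values, and of each other list the 2 genes with the smallest p; other names, and the genes left out of marker sums, were chosen after their values were seen. Some genes that met these rules are not reported here. Counting errors and the value of 3 reads cover counting error only.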

Additional observations from a re-analysis of the deposited data

How the results depend on the processing

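Over all genes tested, 20 were higher and 12 lower in PM, and these counts moved with most settings. They were 165 and 110 with no filter on low counts, 267 and 115 by DESeq2, 12 and 5 by limma-voom, 126 and 80 at an adjusted p below 0.10, and 346 and 289 with all 6 tables as deposited, where the copied library enters as a replicate. Without robust estimation 5 were lower. With 1 library left out, higher genes ran from 1 (without PBS replicate 1) to 261 (without PM replicate 3) and lower genes from 0 to 166; without either PBS library the lone one is assumed to vary like the PM libraries. Of the 10 MMP and TIMP genes, 0 were higher in the edgeR fit, 2 with no filter and 2 at an adjusted p below 0.10 (Mmp8 and Mmp19 in both), 3 by DESeq2 and 3 with all 6 tables (Mmp8, Mmp12 and Mmp19 in both), and 0 to 3 with 1 library left out; 0 were lower under every setting. Their median log2 fold of 0.62 was 0.52 by limma-voom, 0.48 with all 6 tables, and 0.29 (without PBS replicate 3) to 1.13 (without PBS replicate 1) with 1 library left out. With 1 library left out, log2 folds ran from -0.10 (without PBS replicate 3) to 1.28 for Mmp3, from -0.10 (without PM replicate 3) to 1.29 for Mmp9 and from -0.18 (without PM replicate 3) to 0.20 for Timp3; the other 7 genes kept their direction under all 14 alternatives fitted. The cause of these shifts was not tested.

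The replicate numbers were not taken to pair the samples. Across genes, deviations from the group means correlated at -0.027 between PBS and PM replicates 1 and at 0.066 between replicates 3. The correlation was 0.084 between PBS replicate 1, deposited also as replicate 2, and PM replicate 2. With 2 PBS libraries, the deviations of 1 mirror those of the other, so these values cannot show whether samples were paired. With the replicate block, which leaves 1 residual degree of freedom, 221 genes were higher and 132 lower. In that fit 4 of the 10 genes were called (Mmp8, Mmp12, Mmp19 and Timp1), and the median log2 fold was 0.72. PM replicate 2 was alone in its block there, so it did not enter the PM difference. Depth limits Mmp3 most, with 18 reads in 1 library, and the 10 family genes that were not tested.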
